A study of Mus musculus with 2 samples.

Results

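Skeletal muscle genes were read on an array of FGF18-injected and an array of PBS-injected mouse back skin. The embryonic myosin Myh3, the myogenic regulator Myog and the acetylcholine receptor subunits Chrna1 and Chrnb1 were 2.48-fold to 4.42-fold higher on the FGF18 array. The fetal receptor subunit Chrng was measured on that array only. Its brighter probe was 17.1-fold above the dimmest signal that was well above background on the PBS array. The adult receptor subunit Chrne and the co-factor Mef2c had ratios near the median of all genes. So did the perinatal myosin Myh8, by 1 of its 4 probes, a value that is uncertain as a measure of this gene. The fast-fibre genes and those shared by fibre types differed by 1.80-fold or less. Troponin C of slow muscle, Tnnc1, was the single gene of the set that was more than 2-fold lower. The set is 38 genes of skeletal muscle contraction and the neuromuscular junction, taken by their names in the scanner files, out of 27576 named genes, and they were represented by 68 of 41165 probes. They comprised 13 fast-fibre genes, 5 slow-fibre genes, 7 genes shared by fibre types, 7 developmental myosins and myogenic factors, and 6 genes of the acetylcholine receptor and its organiser MuSK.

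The study asked which genes in skin answer to FGF18, a secreted fibroblast growth factor of the hair follicle, when it is delivered locally during hair growth. Both groups were male C3H/HeN mice aged 61 days, whose back hair had been removed 5 days before sampling to start a new growth phase (anagen). One group received 1 microgram of FGF18 under the skin on day 4 of that phase, the other received PBS, the carrier, and full-thickness back skin was taken 24 hours later. Polyadenylated RNA was measured on 1 single-colour array per group. There are no biological replicates, so differences are described without a test, and their precision is limited by having 1 array on each side. The labels name 3 mice, and they differ on whether RNA was pooled within a group or extracted mouse by mouse; with 1 array per group the spread between mice was not measured. The labels of the PBS sample conflict: its title has the resting phase, telogen, and its other labels have anagen, which was followed.

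In mice a thin sheet of skeletal muscle, the panniculus carnosus, lies beneath the skin of the back and can be collected with it. Its fibres contract through fast or slow isoforms of myosin, troponin and calcium pumps. The receptor for acetylcholine in fetal or denervated muscle contains the gamma subunit, and in the adult synapse the epsilon subunit takes its place. The myogenic factors are transcription factors that bind E-boxes, short DNA sites of the form CANNTG, and receptor subunit genes are among their classical targets. In a bulk sample, fewer muscle cells and less RNA per muscle cell cannot be told apart.

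The promoters of Chrng, Chrna1 and Myog, which were higher on the FGF18 array, and of Chrne, which was not, are shown because E-boxes in these regions are textbook sites of myogenic factors. Each sequence is the 250 bases upstream of the RefSeq start on GRCm38.p6, 5′ to 3′ on the gene's strand. Capitals mark CANNTG, which reads as CANNTG on both strands, and in Chrne also CCGGAA, the core of the element through which synaptic nuclei are known to drive that gene.
Chrng, chr1:87205561-87205810, plus strand: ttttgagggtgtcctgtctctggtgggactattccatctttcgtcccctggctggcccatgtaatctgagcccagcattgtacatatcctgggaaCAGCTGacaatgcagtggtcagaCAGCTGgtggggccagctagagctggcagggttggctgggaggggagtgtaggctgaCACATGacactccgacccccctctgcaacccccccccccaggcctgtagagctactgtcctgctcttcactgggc
Chrna1, chr2:73580339-73580588, minus strand: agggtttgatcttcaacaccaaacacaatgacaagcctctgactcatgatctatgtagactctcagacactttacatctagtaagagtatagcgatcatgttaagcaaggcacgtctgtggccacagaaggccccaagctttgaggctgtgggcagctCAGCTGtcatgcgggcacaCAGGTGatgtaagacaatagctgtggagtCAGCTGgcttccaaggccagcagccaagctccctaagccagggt
Myog, chr1:134289754-134290003, plus strand: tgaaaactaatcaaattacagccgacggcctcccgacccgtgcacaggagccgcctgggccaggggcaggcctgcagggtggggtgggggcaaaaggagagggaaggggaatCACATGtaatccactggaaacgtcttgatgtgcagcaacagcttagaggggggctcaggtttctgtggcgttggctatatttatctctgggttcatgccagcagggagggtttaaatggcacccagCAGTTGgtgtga
Chrne, chr11:70619195-70619444, minus strand: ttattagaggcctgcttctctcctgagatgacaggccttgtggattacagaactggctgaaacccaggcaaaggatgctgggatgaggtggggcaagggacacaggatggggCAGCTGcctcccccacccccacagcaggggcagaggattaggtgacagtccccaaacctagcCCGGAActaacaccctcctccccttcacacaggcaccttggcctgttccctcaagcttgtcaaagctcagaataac
Chrng held CANNTG 3 times, beginning at -155, -132 and -75 relative to the start, and the first 2 read CAGCTG. Chrna1 also held it 3 times, with CAGCTG at -92 and -44 and CAGGTG at -73. Myog held CACATG at -138 and CAGTTG at -12. Chrne held 1 E-box, CAGCTG at -138, and CCGGAA at -76. Of 32851 RefSeq promoter windows of this length, 66.2% held CANNTG at least once, 12.2% at least 3 times, 13.0% held CAGCTG and 1.26% held CAGCTG at least 2 times. CAGCTG is a form of CANNTG, so the counts overlap. CCGGAA or its reverse complement TTCCGG was in 12.03% of all windows. There were 38 promoter windows for 31 of the members. Of these windows 32 had CANNTG (84.2%), 16 had CAGCTG (42.1%) and 3 had CCGGAA or TTCCGG. Windows of the same gene can overlap, so a single site can be counted more than once, as with CAGCTG in Tnni1 and Mb. That form of E-box was also found in Acta1, Mylpf and Myh4, whose log2 ratios were 0.06, 0.19 and 0.21. It was absent from the windows of Myh3 and Chrnb1, which were higher on the FGF18 array. The promoters printed above belong to members chosen with earlier results of these data known. Whether E-boxes go with the ratios was not tested. A match is a description of the letters and not evidence of a bound site.

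The arrays were similar in their shares of spots well above background. Each carried 43379 probe spots, of which 62.4% (FGF18) and 61.5% (PBS) were well above background, and 0 spots were saturated. Signals below are the scanner's processed intensities; log2 ratios and folds were taken after each array was scaled to its 75th percentile, a signal of 1020 (FGF18) and 899 (PBS). Over the 16610 genes well above background on both arrays the median log2 ratio was -0.07, with an SD over genes of 0.40. Scaling to 7 spike-in probes instead would have added 0.81 to every log2 ratio. Skin markers were present on both arrays, and all 6 epidermal and all 7 anagen follicle markers were well above background. The error after each log2 ratio comes from the scanner software's own errors for those spots and covers the array measurement alone. For a gene with several probes, the errors of the probes were combined as if independent. The value therefore falls with the number of probes and leaves out the spread between them.

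Of the 38 members, 34 were well above background on both arrays, 2 (Chrnd and Chrng) on the FGF18 array only, and 2 (Myf5 and Musk) on neither. Among the 34, 4 were at least 2-fold higher on the FGF18 array, against 1.54% of all genes measured on both, and 1 was at least 2-fold lower, against 0.987%. At a fold of 1.5 the counts were 8 higher and 1 lower, against 3.79% and 4.82% of all genes. At a fold of 1.2 they were 11 higher and 1 lower, against 11.5% and 20.7%. The median log2 ratio of the 34 was 0.22, which is 0.29 above the median of all genes, and 27 of 34 lay above that median. By mean signal 6 members lay in the dimmest of 3 equal classes of genes, 6 in the middle and 22 in the brightest. Myh3, Chrnb1 and Tnnc1 were in the dimmest, where 1.73% of all genes were higher by 2-fold or more and 1.93% lower. Myog and Chrna1 were in the middle class, where the shares were 1.79% and 0.632%. In the brightest class, which held most contractile genes, they were 1.1% and 0.397%. Relative to the median of all genes, 12 members lay higher by more than 2 scanner errors, against 9.46% of all genes, and 1 lay lower, against 7.6%. The members were chosen with earlier results of these data known, so these counts are a description only.

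**Figure D1:**
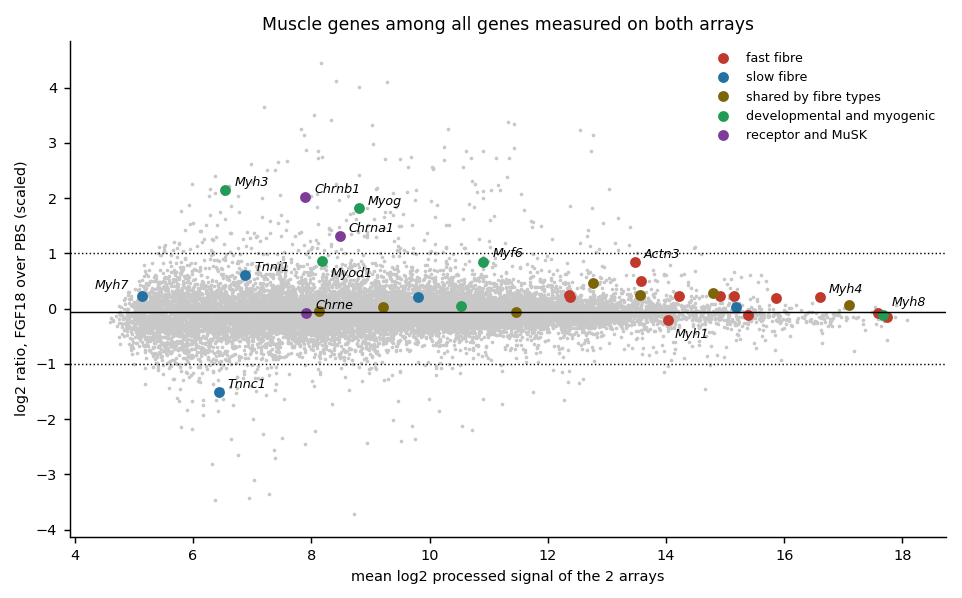
Log2 ratio of FGF18 over PBS against the mean log2 processed signal of the arrays for the genes measured on both arrays, with the muscle members coloured by group and all other genes in gray. Myh3, Chrnb1, Myog and Chrna1 lie above a log2 ratio of 1, Tnnc1 lies at -1.51, and the fast-fibre genes lie between -0.21 and 0.85, with Actn3 the highest of them; the all-gene median is -0.07.

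The receptor is built of alpha, beta and delta subunits together with either gamma or epsilon. Chrng encodes the fetal gamma subunit, and its brighter probe had a signal of 470 on the FGF18 array against 10.9 on the PBS array, where it was not well above background. Set against the dimmest signal that was well above background there, 24.2, the FGF18 signal was 17.1-fold higher after scaling. Some brighter PBS spots were not well above background, so this is not a strict lower bound. The second Chrng probe gave 110 against 22.6, or 4.01-fold by the same measure. Both probes of the gene were thus measured on the FGF18 array alone, which held for 1013 probes of the whole array; 671 probes were measured on the PBS array alone.

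Chrna1, the alpha subunit that carries the acetylcholine binding site, had probes at 2280 against 680 and at 157 against 66.4. The ratios of these probes were 2.96-fold and 2.08-fold, and the gene's mean log2 ratio was 1.31 ± 0.16, or 2.48-fold higher. Chrnb1, the beta subunit, had 513 against 111 by 1 probe, a log2 ratio of 2.03 ± 0.22 and 4.07-fold higher. Chrnd, the delta subunit, was dim, at 36.3 against 6.40, a log2 ratio of 2.32 ± 1.47, and 1.32-fold above the PBS floor of 24.2. PBS spots as bright as 33.9 were not well above background, so a difference in Chrnd is not established. Chrnd and Chrng lie next to each other on chromosome 1 with 0 coding genes between them in RefSeq.

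Chrne, the epsilon subunit of the adult synapse, stood apart from these. Its brighter probe gave 250 against 233, a log2 ratio of -0.08 ± 0.21, within the scanner error of the all-gene median. Its second probe, at 22.2 against 18.8, was not well above background on either array. The sign of the Chrne ratio turned positive without scaling between the arrays or with scaling to their medians. Musk, the kinase that clusters the receptors under the nerve ending, was at 15.2 and 7.0, not well above background on either array.

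**Figure D2:**
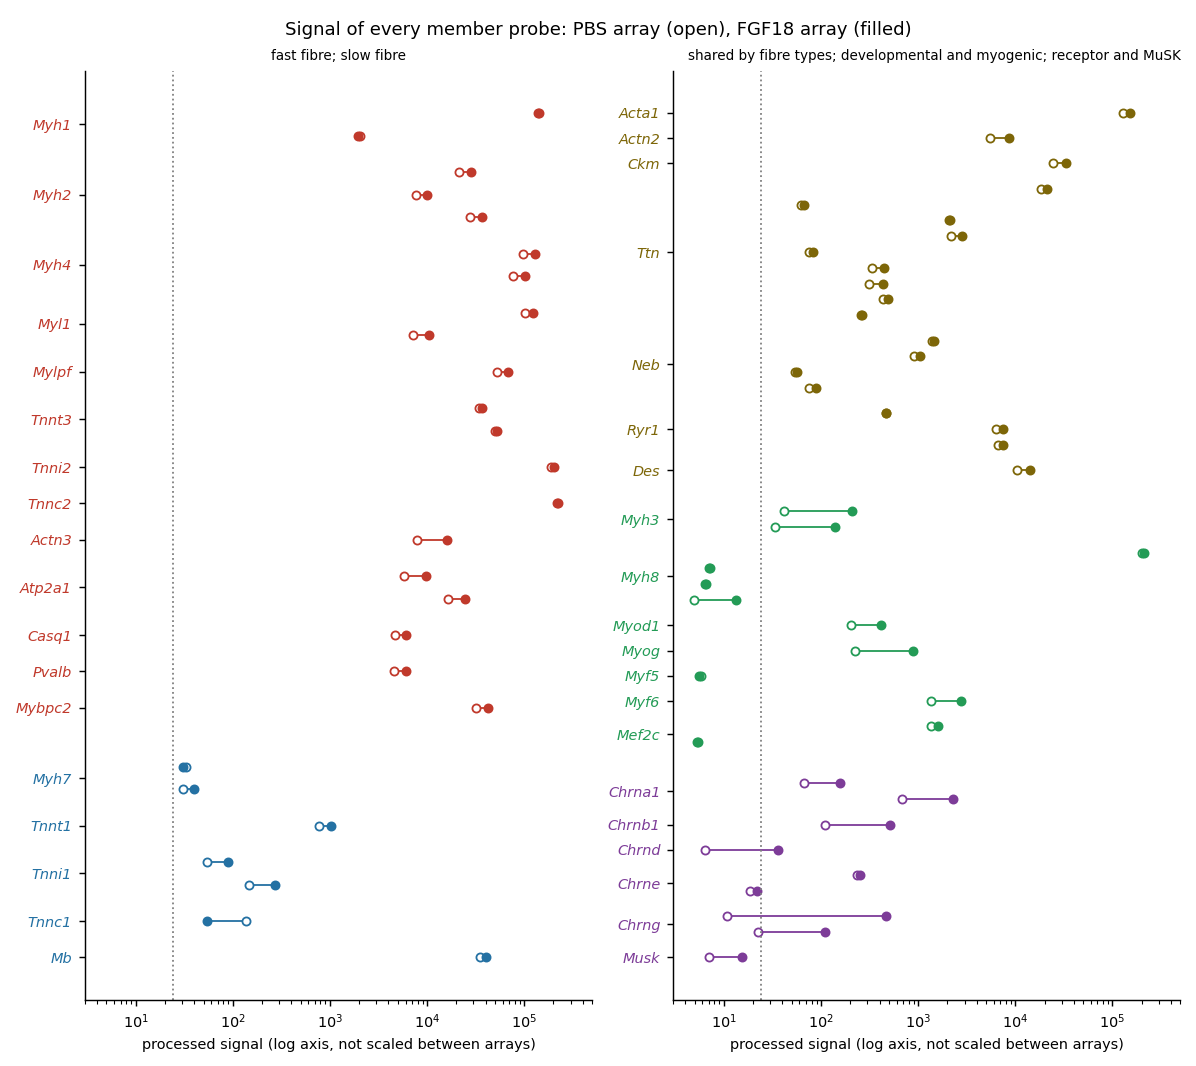
Processed signal (log axis) of each member gene on the PBS array (open) and the FGF18 array (filled), by group, with a dotted line at 24.2, the lowest signal well above background on the PBS array. Chrng and Chrnd cross this line between the arrays, whereas the fast-fibre genes are well above it on both.

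Myog encodes myogenin, the factor that drives myoblasts into differentiation. Its probe was printed in 10 spots, which read 822 to 964 (median 897.5) on the FGF18 array and 211 to 233 (median 226.5) on the PBS array. The spots of the arrays did not overlap, and the log2 ratio was 1.81 ± 0.21, or 3.51-fold higher. Myod1, the factor that commits cells to muscle, had a smaller ratio. After 2 flagged spots were left out, 8 spots read 365 to 441 (median 422) against 188 to 219 (median 200.5), without overlap, at a log2 ratio of 0.86 ± 0.21 and 1.82-fold. Spots of 1 probe share the RNA and the array, so their separation covers printing and hybridisation alone.

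Myf6, or MRF4, the myogenic factor of mature fibres, was at 2730 against 1350, a log2 ratio of 0.83 ± 0.20 and 1.78-fold. Its chromosome 10 neighbour Myf5, the early myogenic factor of progenitors, had 8 usable spots at 4.73 to 6.90 and 4.89 to 7.10, not well above background on either array. Mef2c, a co-factor of the myogenic factors that is also active in other tissues, was at 1600 against 1360 by its measured probe, with a log2 ratio of 0.05. The myogenic factors therefore held ratios from 0.83 to 1.81 for Myf6, Myod1 and Myog, while Mef2c lay 0.12 above the all-gene median.

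**Figure D3:**
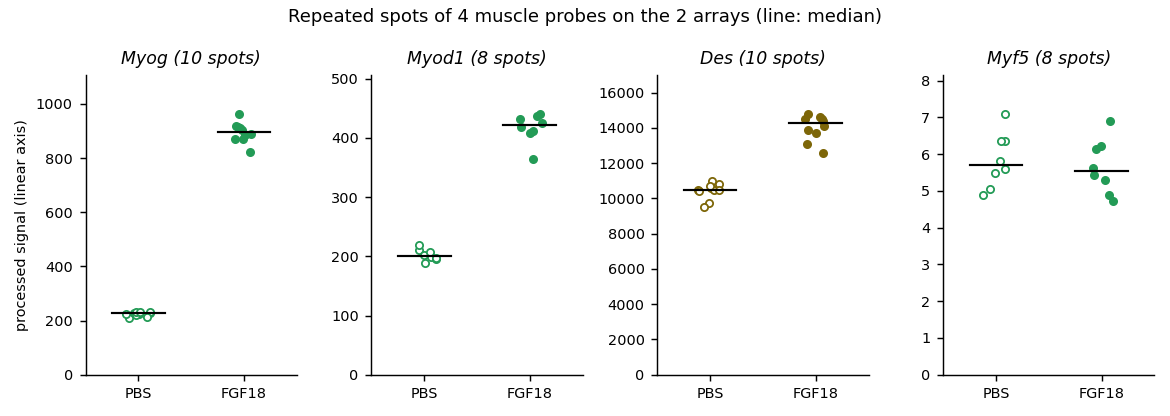
Signal of each repeated spot (linear axis) for the member probes printed many times, Myog, Myod1, Des and Myf5, on the PBS and FGF18 arrays. Spots of Myog, Myod1 and Des separate between the arrays, and those of Myf5 lie together at background.

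Myh3 encodes the embryonic myosin heavy chain and ranked 59 from the highest among all 16610 genes. Its measured probe gave 209 against 41.7, a log2 ratio of 2.14 ± 0.27 and 4.42-fold higher. The second probe gave 140 against 33.9, or 3.64-fold, though the PBS spot was not well above background. Myh8, the perinatal myosin, had 1 of 4 probes well above background, at 213000 against 203000 and a log2 ratio of -0.11. That ratio is uncertain as a measure of Myh8, since the other 3 probes were not well above background and the myosin heavy chain genes are near-identical. Myh3, Myh2, Myh1, Myh4 and Myh8 lie in a row on chromosome 11 with 0 coding genes between neighbours.

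The 13 fast-fibre genes had a median log2 ratio of 0.21. At 2-fold there were 0 of 13, against 1.54% of all genes higher and 0.987% lower, and 2 of 13 were at least 1.2-fold higher, against 11.5%. The latter count was 9 of 13 with scaling to the median, where 18.2% of all genes were past 1.2-fold, and 9 of 13 without scaling, where 26.0% were and Actn3 reached a log2 ratio of 1.03. Among the fast myosins, Myh4 (type IIb) had probes at 128000 against 97500 and 102000 against 77400, for a mean log2 ratio of 0.21. Myh2 (type IIa) had 3 probes with log2 ratios from 0.22 to 0.25, whose brightest gave 37100 against 27500. Myh1 (type IIx) was at 141000 against 140000 and 1950 against 2030, with a mean log2 ratio of -0.21. Their ratios ran from -0.21 to 0.23, and cross-reaction among the near-identical myosins was not tested.

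Actn3, alpha-actinin-3 of the fast Z-disc, was the fast-fibre gene with the highest ratio, at 16200 against 7950, a log2 ratio of 0.85 ± 0.20 and 1.80-fold. Atp2a1, the fast calcium pump SERCA1, gave 9750 against 5730 and 24400 against 16300, a log2 ratio of 0.49 ± 0.14 and 1.41-fold. Both lay above the all-gene median by more than 2 scanner errors, as did Myh2 and the myosin light chain Myl1. The Myl1 probes differed, with log2 ratios of 0.08 and 0.38.

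The fast troponins had ratios slightly below 0, within 2 scanner errors of the all-gene median. Tnnc2, the calcium-binding subunit, was at 221000 against 217000, a log2 ratio of -0.16. Tnni2, the inhibitory subunit, was at 204000 against 190000, a log2 ratio of -0.08, and Tnnt3, which anchors the complex to tropomyosin, had -0.12 over 2 probes. All 3 turned positive without scaling between the arrays, at 0.026, 0.103 and 0.065, where the all-gene median was 0.111. The remaining fast genes, Mylpf (a regulatory light chain), Casq1 (calcium storage), Mybpc2 (a myosin-binding protein) and Pvalb (a calcium buffer), had log2 ratios of 0.19, 0.21, 0.23 and 0.25.

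The 5 slow-fibre genes had a median of 0.21. The fast minus slow difference was 0.00, but 0.19 with normexp background correction and 0.20 without a filter on dim probes, and the slow genes spread over a wider range. Tnnc1, the troponin C of slow and cardiac muscle, was at 54.7 with FGF18 against 137 with PBS, a log2 ratio of -1.51 ± 0.25 or 2.84-fold lower, by 1 dim probe. Tnni1, the slow inhibitory subunit, went the other way, at 89.4 against 54.6 and 269 against 146, with a log2 ratio of 0.61 ± 0.17 and 1.53-fold higher. Members of the same slow troponin complex thus differed in direction. Tnnt1, the slow tropomyosin-binding subunit, was at 1020 against 777, a log2 ratio of 0.21. Myh7, the slow myosin, was near the floor at 40.2 against 30.4, with 0.22 ± 0.38 that turned negative under normexp. Mb (myoglobin, the oxygen store) was at 40100 against 34900, with 0.02.

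Among the 7 genes shared by fibre types the median log2 ratio was 0.06. Ttn (titin, the elastic filament) had 9 probes with log2 ratios from -0.24 to 0.29 and a mean of 0.03 ± 0.07. Neb (nebulin, the thin-filament ruler) had 4 probes and a mean of -0.04, Ryr1 (the calcium release channel) had 3 and -0.06, and both signs turned positive without scaling. Acta1, skeletal alpha-actin, was at 153000 against 129000, a log2 ratio of 0.06. Ckm, muscle creatine kinase, was at 33500 against 24300, 1.22-fold higher, and Actn2, the general Z-disc alpha-actinin, at 8700 against 5550, 1.38-fold higher. Des, desmin, was printed in 10 spots, which read 12600 to 14800 on the FGF18 array and 9510 to 11000 on the PBS array, without overlap, at a log2 ratio of 0.25.

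**Figure D4:**
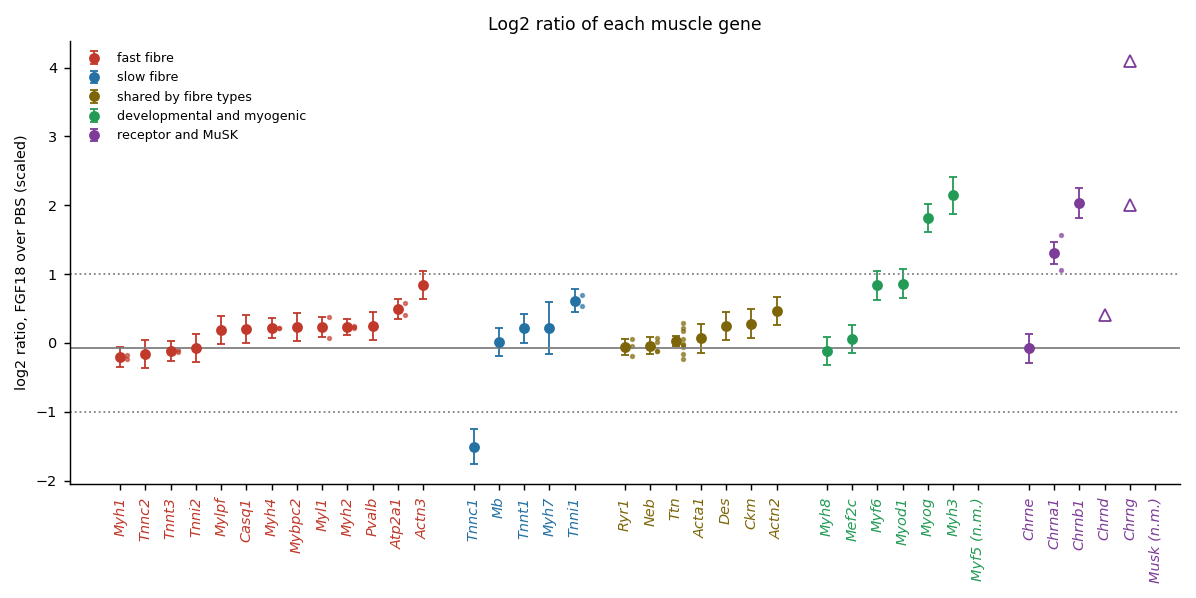
Log2 ratio of FGF18 over PBS for each member by group. Bars are the scanner error, small dots single probes and open triangles ratios against the PBS array's floor. The gray line is the all-gene median and dotted lines are a 2-fold difference. Myh3, Myog, Chrnb1 and Chrna1 lie above 1, the other measured genes of their groups and all fast and shared genes lie below 1, and n.m. marks Myf5 and Musk, not well above background on either array.

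The groups were then set beside each other by their medians, which does not depend on a constant scaling between the arrays. The developmental and myogenic group had a median of 0.85 over 6 measured genes, and the receptor group 1.31 over 3. The fast-fibre median lay 0.63 below the first and 1.10 below the second on the log2 scale, and 0.15 above the shared genes. Of the 6 developmental genes 4 lay above the all-gene median by more than 2 scanner errors, against 9.46% of all genes, as did 2 of 3 receptor genes, 4 of 13 fast genes, 1 of 7 shared genes and 1 of 5 slow genes. The receptor group's median rests on few genes, and the differences between groups were not tested.

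Other genes of muscle were taken from 9 lists by role, 120 genes in all, of which 109 were measured on both arrays. The lists were drawn up with earlier results of these data known, so their counts beside all genes are a description only. Their median log2 ratio was 0.20, with 5 higher by 2-fold or more, against 1.54% of all genes, and 0 lower by as much, against 0.987%. Past 1.2-fold, 47 lay higher and 2 lower, against 11.5% and 20.7% of all genes; with scaling to the median the shares of all genes turned to 18.2% higher and 12.2% lower. The triad list, the site where the fibre's surface signal releases calcium, had a median of 0.38, and all 14 measured genes lay above the all-gene median. In it Sln, sarcolipin, an inhibitor of the calcium pump, was at 19000 against 6060, 2.76-fold higher, and Jph1, junctophilin-1, had a log2 ratio of 0.86. Asph and Trdn, with 0.05 and 0.11, were its lowest.

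The slow-fibre list had a median of 0.40, with all 9 measured genes above the all-gene median. Casq2, the slow and cardiac calsequestrin, was at 659 against 322, 1.80-fold higher, and Cryab, a small heat-shock protein, was 1.77-fold higher. Tpm3 and Atp2a2, slow tropomyosin and the slow calcium pump, had log2 ratios of 0.05 and 0.06. The fast-fibre list had a median of 0.23, led by Mybph, a relative of the myosin-binding proteins, 2.20-fold higher, and by Ampd1 at 0.52. Tpm2 and Eno3 were its lowest, at -0.12 and -0.05.

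The list of satellite cell and differentiation genes had a median of 0.09, with 2 of 15 at least 2-fold higher, against 1.54% of all genes. These were Myl4, a light chain of embryonic muscle and atria, at 1054 against 339 and 2.74-fold, and Cdh15, M-cadherin, a surface protein of myoblasts and satellite cells, at 512 against 202 and 2.23-fold. Actc1, cardiac alpha-actin, which fetal skeletal muscle also makes, had a log2 ratio of -0.25. That value lay within 2 scanner errors of the all-gene median, so Actc1 is not counted as lower.

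The neuromuscular junction list had a median of 0.02, with 0 of 8 at least 2-fold different, against 1.54% of all genes higher and 0.987% lower. Dok7, an activator of MuSK, was 1.39-fold higher, and Rapsn, rapsyn, which anchors the receptor, was at 266 against 181, a log2 ratio of 0.37. Lrp4, the agrin receptor, which skin epithelium also makes, was at 1420 against 1900, 1.52-fold lower, and Erbb3 had -0.15. In the sarcolemma list (median 0.18) Kcnj11, a potassium channel, had 0.63, while Dmd (dystrophin) and Lama2 had -0.13 and -0.11.

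The lists of thin filament, Z-disc and M-band genes, of energy metabolism and of muscle wasting had 21, 10 and 8 genes measured. They held 0 genes past 2-fold, against 1.54% of all genes higher and 0.987% lower. Their medians were 0.20, 0.11 and 0.12. The highest were Pdlim3 (a Z-disc protein, 1.73-fold) and Synpo2l (0.68), Phka1 (a phosphorylase kinase subunit, 0.60) and Art1 (0.27), and Trim55 and Trim63 (muscle ubiquitin ligases, 0.29 and 0.25). The lowest were Tcap and Cfl2 (-0.14 and -0.06), Cox7a1 and Ckmt2 (-0.13 and -0.12), and Foxo1 and Mt2 (-0.34 and -0.21), all as log2 ratios.

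**Figure D5:**
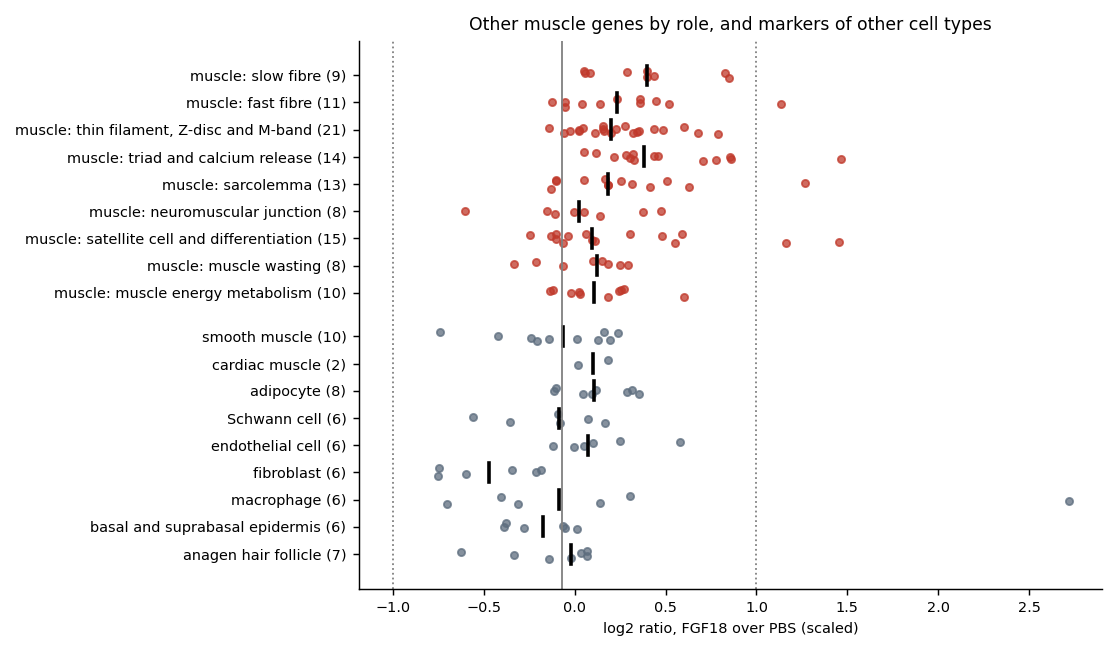
Log2 ratio of FGF18 over PBS for the genes of each muscle list (red) and each marker list of other cells (gray-blue), 1 point a gene, with a black bar at the list's median, a gray line at the all-gene median and dotted lines at a 2-fold difference. The triad and slow-fibre lists have medians of 0.38 and 0.40, the neuromuscular junction list 0.02.

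Markers of other cells in full-thickness skin had the following values, and their part in the muscle values was not tested. Their summed signals are given before scaling between the arrays, FGF18 against PBS. Of 11 smooth muscle markers 10 were measured on both arrays, with a median log2 ratio of -0.06, from Mylk at -0.74 to Cnn1 at 0.24, and their summed signal was 39783 against 39456. Of 6 cardiac markers 2 were measured on both (Tnni3 0.02, Mybpc3 0.18), with a summed signal of 262 against 219, and Myh6, Nppa, Nppb and Myl7 were not. The 8 adipocyte markers had a median of 0.11 (Lpl -0.11, Retn 0.35) and a summed signal of 94078 against 76710. The 6 Schwann cell markers had -0.09 (highest Mbp, 0.17), with 18818 against 20771. The 6 endothelial markers had 0.07 (Tek -0.12, Kdr 0.58), with 6002 against 4614.

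The 6 fibroblast markers had -0.47 (Col1a2 -0.75, Pdgfra -0.19), with a summed signal of 112890 against 126180. The 6 macrophage markers had -0.09, from Mrc1 at -0.70 to Fcgr1 at 2.72, with 14718 against 10776. The epidermal markers had -0.17 (Krt10 -0.39, Krt14 0.02), with 434820 against 416790, and the anagen follicle markers -0.02 (Krt71 -0.63, Krt35 0.07), with 179800 against 198190. Across the members, the sum of signals was 1.01-fold after scaling, a sum to which the brightest probes contribute most.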

How the data were processed

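Expression was measured on 2 single-colour Agilent arrays (design 014868), 1 per group, with groups taken from the source names. Per the file headers, Feature Extraction 9.5.3.1 produced the deposited intensity values, the processed signal being background-subtracted. Per the file headers, the other deposited columns hold spot flags, names and the scanner's error. The series table deposited by the authors is a ratio, the processed signal over each array's median (83.8 and 80.0), with a largest log2 departure of 0.0078 and column medians of 1.00 and 0.999; its direction matched the scanner files, and no source used here gives any further scaling. The files name no genome build.

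Log2 processed signals minus each array's 75th percentile were compared. Control and outlier-flagged spots were left out, means were taken over spots and then over a gene's probes, and measured probes are those where at least 0.5 of its spots were well above background. Names other than the members' were updated through the RefSeq table of GRCm38.p6 (23374 probes by accession, 6733 by symbol, 2907 by synonym; 8160 kept the file's name). A difference measured on 1 array is given against the other array's floor, 23.3 or 24.2, or its own signal there if higher. The floor is the dimmest signal well above background, and some brighter spots were not well above background, so these are not strict lower bounds.

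The members and lists were chosen with earlier results of these data known. All 38 members are named, with the 2 highest and 2 lowest genes of each muscle list and the highest and lowest marker of each cell type; some genes that this rule took are not reported here. Python 3.11.15 (numpy 2.4.6, pandas 2.3.3, matplotlib 3.10.9) and limma 3.58.1 in R 4.3.3 were used, and the steps were tested on simulated data. The alternatives were other scalings, normexp background correction (offset 50), other filters on dim probes and other probe rules.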

Additional observations from a re-analysis of the deposited data

How the results depend on the processing

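No paired analysis was possible because each group has 1 array. All values rest on these arrays, and the spread between mice was not measured. Probes printed at least 8 times had a median SD of log2 ratio of 0.11 between spots in the dimmest of 3 signal classes, against 0.026 in the brightest. Of 34 members, 24 kept their sign in every one of the 13 alternatives, other than the spike-in scaling, that gave them a value. The other 10, Chrne, Mef2c, Myh7, Myh8, Neb, Ryr1, Tnnc2, Tnni2, Tnnt3 and Ttn, changed sign in at least 1, and Myh1 did so with the spike-in only. Several alternatives shift all genes by a constant, so a small ratio can change sign there while its distance from the all-gene median stays the same. Myog, Chrna1 and Chrnb1 were at least 2-fold higher in all 14 alternatives, and Myh3 in the 13 that measured it. Tnnc1 was at least 2-fold lower in 11 of 13, with -0.98 under normexp.

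The count of members at least 1.2-fold higher was 11, against 11.5% of all genes. It became 21 with scaling to the median (18.2% of all genes), without scaling (26.0%) and in the series table (19.1%). It became 19 with quantile normalization (13.9%) and 20 with loess (15.7%). With scaling to 7 spike-in probes, which was chosen after seeing the data, it was 33 of 34, near the 94.4% of all genes. These scalings move all genes: the all-gene median shifted by 0.10 with the median, 0.18 without scaling, 0.12 in the series table and 0.81 with the spike-in. The count at least 2-fold higher, 4, became 7 without scaling (2.02% of all genes) and 20 with the spike-in (15.7%). The count at least 2-fold lower, 1, became 0 with normexp (0.409% of all genes), with a signal over 100 (0.502%) and with the spike-in (0.169%). That at least 1.2-fold lower became 0 with a signal over 100 (16.97% of all genes). Of all genes past 2-fold, 61.0% were higher, against 71.9% with the median, 78.5% without scaling, 72.7% in the series table, 71.1% with normexp, 69.6% with loess, 67.3% with quantile normalization, 72.1% over 100, 46.8% without a filter and 98.9% with the spike-in. 

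Relative to all genes, the receptor median of 1.38 was 1.12 with normexp, 2.09 with probes measured on at least 1 array, 1.85 without a filter, 1.63 over 100 and 1.63 with the brightest probe. The shared-gene median of 0.14 was 0.29 with quantile normalization, the slow-fibre median of 0.28 was 0.11 with normexp, and the junction list's 0.09 was -0.043 with probes measured on at least 1 array. Fast minus slow, 0.00, was 0.19 with normexp and 0.20 without a filter. Fast minus receptor, -1.10, was -0.81 with normexp, -1.81 with at least 1 array, -1.46 without a filter, -1.35 over 100 and -1.36 with the brightest probe. With at least 1 array, Chrng and Chrnd entered the receptor group through their FGF18 signal alone. Their PBS signals (10.9 for the brighter Chrng probe, 6.40 for Chrnd) were at background. That rule itself favours a higher receptor median, so 2.09 and -1.81 are not separate estimates. Without a filter the same genes entered with those PBS signals, which limits 1.85 and -1.46 too. Nrg1 entered the junction list through its PBS signal alone, which limits -0.043 alike. Other reasons for these shifts were not tested.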

Other observations

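A further 18 genes of regenerating, stretched or denervated muscle were looked up after the member values were seen, and 17 of them were measured on both arrays. Of these, 3 were higher by 2-fold or more with FGF18, against 1.54% of all genes, and 0 were lower by as much, against 0.987%, and the median log2 ratio was 0.25. Ankrd1, an ankyrin-repeat protein of the sarcomere that is induced by muscle stress, was at 1650 against 222, a log2 ratio of 2.71 and 6.55-fold higher. Its relative Ankrd2 was at 4150 against 1150, 3.18-fold higher. Rrad, a small GTPase made in muscle after injury, was at 508 against 205, 2.18-fold higher.

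Gadd45a, a stress-response gene, had a log2 ratio of 0.74, and Mustn1, a small protein of muscle and bone regeneration, had 0.50. H19, Nes (nestin), Hdac9, Tnfrsf12a and Igf2 had 0.32, 0.29, 0.26, 0.25 and 0.25. Runx1, a transcription factor raised by denervation, had 0.00. Fst (follistatin) had -0.12, Dlk1 -0.28, Cdkn1c -0.41 and Hdac4 -0.52. Dach2 was not measured on both arrays, and Mdk (midkine) had 0.08. These genes were chosen with the member values in view and lend them no support.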
